A study of Homo sapiens with 10 samples.

Results

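The genes described here are 38 genes of the HOX clusters, chosen by name as symbols made of HOX, the cluster letter A, B, C or D and a number, out of 57993 symbols in the deposited tables. The HOXA, HOXB, HOXC and HOXD clusters contributed 10, 10, 9 and 9 of them. The choice by name used no measured value, but it was made with earlier results of these data known. Antisense genes and readthrough symbols were not members.

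HOX genes encode homeodomain transcription factors that give cells their position along the head-to-tail axis of the embryo. Within each cluster the genes lie in the order of their paralog numbers, and low numbers are used anteriorly and high numbers posteriorly. Genes with the same number in different clusters are paralogs of closely related sequence. Methylation of lysine 4 of histone H3 by trithorax-group enzymes is associated with active HOX genes, Polycomb-group complexes keep them silent, and enzymes of the KDM5 family remove methyl groups from lysine 4. In the adult colon, epithelial cells keep a set of HOX genes switched on that reflects their posterior origin.

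The cells were HCT116, a human colorectal carcinoma line, and all 10 libraries came from cells sorted for GFP 24 hours after transfection. The labelled groups were parental cells (genotype wild type) with empty vector (2 libraries), KDM5A-/- cells with empty vector (3), KDM5A-/- cells with wild-type KDM5A (3) and KDM5A-/- cells with mutant KDM5A (2). Both lines were bought, and G418 was added for the KDM5A-/- line alone, so genotype, line and drug cannot be told apart. The labels name neither the mutation nor the promoter of the plasmids. Whether replicates were grown as separate cultures is not stated. The p-values then describe the spread among these libraries alone, which may be technical. Libraries were read on either of a pair of Illumina instruments, and which library went on which is not given in the sources used here.

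Each table gives log2 of a rescaled FPKM plus 1. FPKM is a read abundance per length of gene, adjusted for sequencing depth. Levels below are linear values divided by a factor per library ("scaled values"), and how many reads stand behind each is unknown. KDM5A had scaled values of 13.3 and 17.7 in parental libraries and 12.2 to 15.3 with empty vector in KDM5A-/- cells, a difference that did not pass (log2 fold change 0.20, SE 0.13, adjusted p = 0.391, limma), so the RNA over the whole gene does not check the knockout label. It was 13453 to 16237 with the wild-type plasmid and 22816 to 23346 with the mutant plasmid. Of 8 epithelial markers, 7 were at 1 or more in every library, among them CDX2 (12.5 to 18.9), a homeobox gene of the intestine, while VIL1 stayed at 0.445 or less. The summed epithelial markers were 4353 to 4408 with empty vector in KDM5A-/- cells, 4597 to 4853 with wild-type KDM5A, 5344 to 5881 with mutant KDM5A and 4088 to 4683 in parental cells. Of 4 leukocyte markers only CD14 was at 1 or more in every library, and their sum was 1.30 to 2.02 with empty vector in KDM5A-/- cells against 4.12 to 4.97 and 4.76 to 6.54 with the wild-type and mutant plasmids, with CD3E listed at 0 in 9 libraries. Of 5 fibroblast markers only COL1A1 was at 1 or more throughout, with LUM listed at 0 in all 10, and their sum was 20.7 to 28.9 with empty vector in KDM5A-/- cells, 17.7 to 25.3 with wild-type KDM5A, 13.7 to 15.4 with mutant KDM5A and 15.1 to 22.6 in parental cells. Of 3 neuron markers only SYT1 was at 1 or more throughout, and their sum was 36.2 to 37.7 in parental cells against 21.6 to 23.6 in KDM5A-/- cells with empty vector, 22.9 to 23.4 with wild-type and 25.0 to 26.6 with mutant KDM5A. None of 3 endothelial markers was at 1 or more throughout. The part of these levels in the results was not tested. The mutant libraries, and with them parental library 2, differed from the rest in make-up: protein-coding symbols held 88.1% to 88.8% of their total against 90.2% to 90.7% in the other 7, and ribosomal protein genes 14.8% to 15.5% against 12.0% to 13.3%. The part of this make-up in the results for mutant KDM5A was not tested. The factor per library also mattered. Without it, the middle gene of all those tested was shifted by -0.10 (log2) with wild-type KDM5A, by -0.30 with mutant KDM5A, by -0.20 between mutant and wild-type KDM5A and by -0.08 in parental cells.

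The 4 clusters were used to very different extents. In 24 of the 38 genes the deposited value was at least 1 in every library, in 11 it was below 1 in every library, and 3 (HOXB2, HOXC4 and HOXD3) lay on both sides of 1. HOXA had 9 of 10 genes and HOXB 8 of 10 at or above 1 throughout, HOXC had 6 of 9 and HOXD 1 of 9. The HOXA genes held 52.4% of the summed HOX level, HOXB 37.9%, HOXC 7.70% and HOXD 2.01%. The genes below 1 throughout were HOXA2, HOXB1, HOXC11, HOXC12, HOXD1, HOXD4, HOXD9, HOXD10, HOXD11, HOXD12 and HOXD13. HOXD1 was listed at 0 in 9 of 10 libraries and HOXB1 and HOXD12 in 7 each, and none of the 38 was listed at 0 in all.

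The gene of highest level in each cluster was HOXA9, HOXB7, HOXC9 and HOXD8. HOXA9, a posterior gene also known as a leukaemia oncogene, was by far the most abundant: 139 and 136 in parental cells, 134, 143 and 139 with empty vector in KDM5A-/- cells, 133, 132 and 133 with wild-type KDM5A and 132 and 129 with mutant KDM5A. Its parental and empty-vector values overlapped, and the 5 libraries with a KDM5A plasmid lay just below all 3 empty-vector libraries. HOXB7 was 39.3 and 48.4, then 46.3, 45.6 and 44.0, then 37.6, 37.1 and 37.8, then 47.1 and 45.6 in the same order of groups. The wild-type plasmid libraries were the lowest of the 10, and the other groups overlapped. HOXC9 ran from 11.3 to 17.4 over the 10 libraries. HOXD8, the only HOXD gene at or above 1 throughout, ran from 5.12 to 9.15.

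By paralog number, the sum over clusters was highest for number 9 (a mean of 177 over the 10 libraries), followed by 7 (62.1), 8 (41.2) and 6 (32.0). HOXA9 alone gave 76.4% of the group 9 sum, HOXB7 69% of group 7, HOXB8 79.6% of group 8 and HOXB6 68.2% of group 6. Groups 1 and 12, of 2 described genes each, had sums of 0.0369 and 0.0636. Paralogs could differ widely: HOXD9 stayed at 0.391 or less beside HOXA9.

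**Figure D1:**
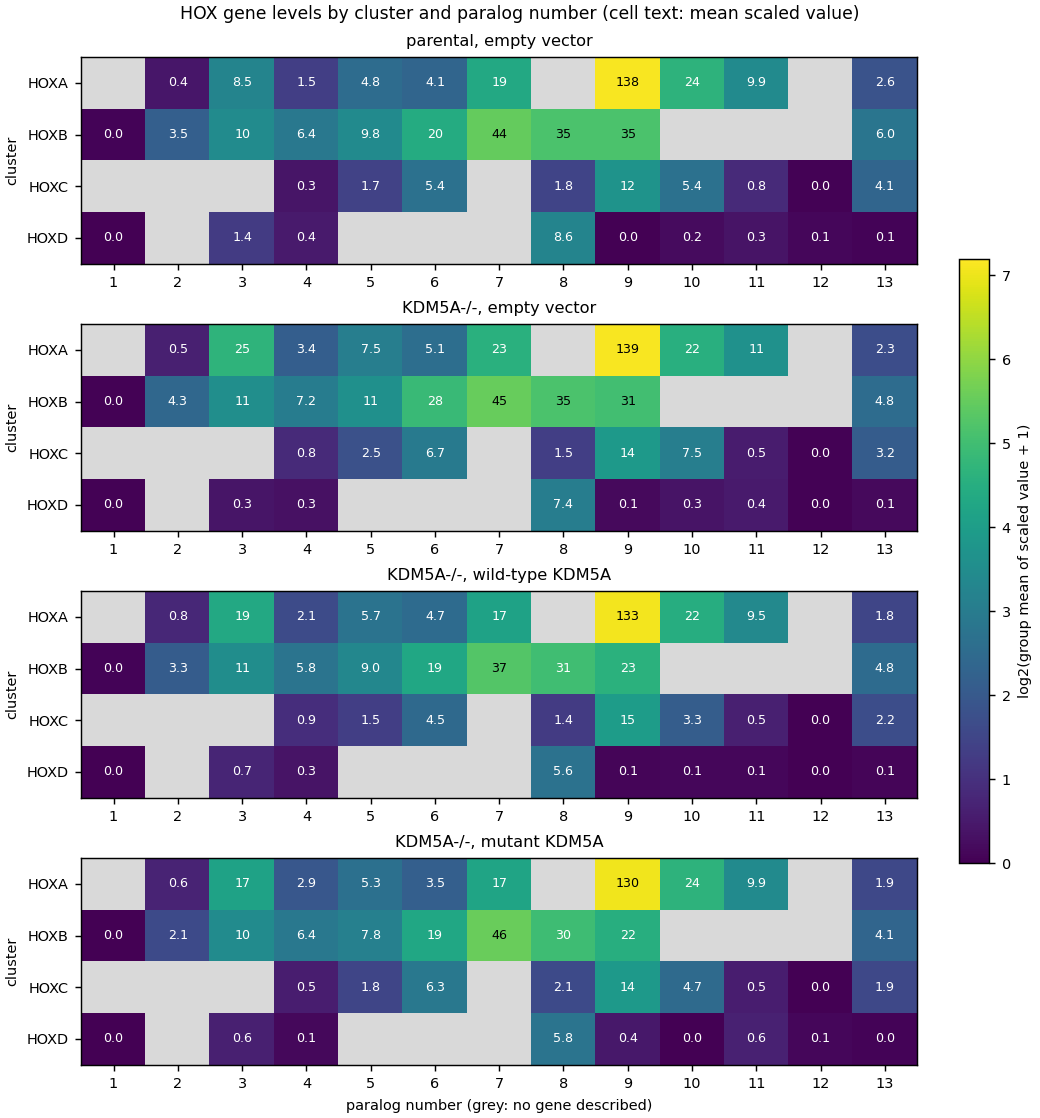
Mean scaled value of each HOX gene (cell text) by cluster (rows) and paralog number (columns) in the 4 groups, with colour on the scale log2(mean + 1). HOXA9 is the brightest cell in every group (130 to 139), HOXA from number 3 and HOXB from number 2 up to 9 lie above 1 in every group, HOXA2 and HOXB1 lie below 1, and so do most HOXD cells.

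Summed over the 38 genes, the scaled HOX level was 423 and 429 in parental libraries and 451, 470 and 466 in KDM5A-/- cells with empty vector. It was 395, 394 and 396 with wild-type KDM5A and 397 and 402 with mutant KDM5A. The 4 groups did not overlap, with the empty-vector KDM5A-/- libraries highest and both plasmid groups lowest and close to each other. These sums depend on the factor per library, which was 0.844 and 0.871 for mutant libraries and 0.989 to 1.02 for wild-type libraries. HOXA9 makes up a large part of this sum, so single genes are given next. Replicates spread less for abundant genes: within groups the coefficient of variation had a median of 8.38% over the 11 tested genes with a mean of 10 or more and 16.1% over the 15 below 10.

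Tests were run with limma over all 17779 genes that reached a scaled value of 1 in 2 or more libraries, and a gene passed at a Benjamini-Hochberg adjusted p under 0.05. Of the 38 HOX genes, 26 passed this filter on low values. Fold changes are differences of log2(scaled value + 1), which understates the change of low genes. Loci of HOX genes lie close together: 25 of the 26 overlap another HOX or HOX antisense locus in the tables, the deposited HOXA3 locus spans HOXA4, HOXA5 and HOXA6, and the strand setting of the counting is not given in the sources used here, so reads near such genes may be shared.

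Setting wild-type KDM5A against empty vector in KDM5A-/- cells asks which HOX genes change within 24 hours of adding KDM5A. HOXB6, HOXB9 and HOXA7 fell to between 66.1% and 74.6% of their empty-vector means, and no HOX gene rose. The 3 genes were lower among 26 tested, where 2.02% of all genes tested were lower and 2.52% higher (4.54% in either direction). At an unadjusted p under 0.05, 13 HOX genes were lower and 0 higher, against 10.3% of all genes lower and 10.2% higher.

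HOXB6 (chromosome 17, 48595750 to 48604992, minus strand, GRCh38), a trunk-level HOX gene, was 24.5, 31.7 and 28.5 with empty vector and 18.1, 18 and 19.7 with wild-type KDM5A. All 3 plasmid libraries lay below all 3 empty-vector libraries. The mean moved from 28.2 ± 3.62 (SD, n = 3) to 18.6 ± 0.958 (SD, n = 3), with adjusted p = 0.0263 (limma) and a log2 fold change of -0.57 (SE 0.11). HOXB9 (chromosome 17, 48621158 to 48626356, minus strand), a posterior gene of the same cluster, was 31.1, 31.9 and 30.7 with empty vector and 22.3, 25.2 and 22.4 with wild-type KDM5A. The gap between the groups was wider than the spread within either. The mean changed from 31.2 ± 0.630 (SD, n = 3) to 23.3 ± 1.65 (SD, n = 3), with adjusted p = 0.0188 and a log2 fold change of -0.41 (SE 0.07). HOXA7 (chromosome 7, 27153715 to 27157936, minus strand) was 24.3, 23.0 and 20.8 with empty vector and 15.7, 18.5 and 16.3 with wild-type KDM5A. Again the groups did not overlap. The mean shifted from 22.7 ± 1.81 (SD, n = 3) to 16.8 ± 1.5 (SD, n = 3), with adjusted p = 0.0458 and a log2 fold change of -0.41 (SE 0.09).

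The next genes by p did not pass. HOXC10, a hindlimb-level gene, was 7.33, 6.49 and 8.70 with empty vector and 3.25, 2.25 and 4.52 with wild-type KDM5A (log2 fold change -1.0, SE 0.25, adjusted p = 0.0602). HOXA3 was 24.3, 24.5 and 25.1 against 19.3, 19.4 and 18.8 (log2 fold change -0.34, SE 0.09, adjusted p = 0.0637), and HOXC6 was 6.88, 6.51 and 6.68 against 4.91, 4.05 and 4.69 (log2 fold change -0.47, SE 0.12, adjusted p = 0.0690). In each of the 3 the groups did not overlap. Non-overlapping groups, lower with wild-type KDM5A, were found in 13 of the 26 HOX genes and in 16.2% of all genes tested. HOXD3, below 1 in every library of both groups, did not overlap in the higher direction, a pattern seen in 16.4% of all genes. The fitted change was below 0 for 24 of 26 HOX genes and for 49.9% of all genes, with a median of -0.27 against 0.00 over all genes. The medians by cluster were -0.24 for 9 HOXA genes, -0.27 for 9 HOXB genes, -0.42 for 6 HOXC genes and 0.00 for 2 HOXD genes.

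The calls rest on few libraries. The count of 3 became 0 when empty-vector library 2 or 3, or wild-type library 1 or 3, was left out. The HOX count was 1 when empty-vector library 1 or wild-type library 2 was left out. Over all genes the count fell from 807, to 226 and 195 without empty-vector libraries 2 and 3 and to 207 without wild-type library 1. Without both mutant libraries and parental library 2 the HOX count was 7, with HOXA3, HOXB7, HOXC6 and HOXC10 added, and all 7 were lower. Over all genes the count in that fit also rose, from 807 to 1690.

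**Figure D2:**
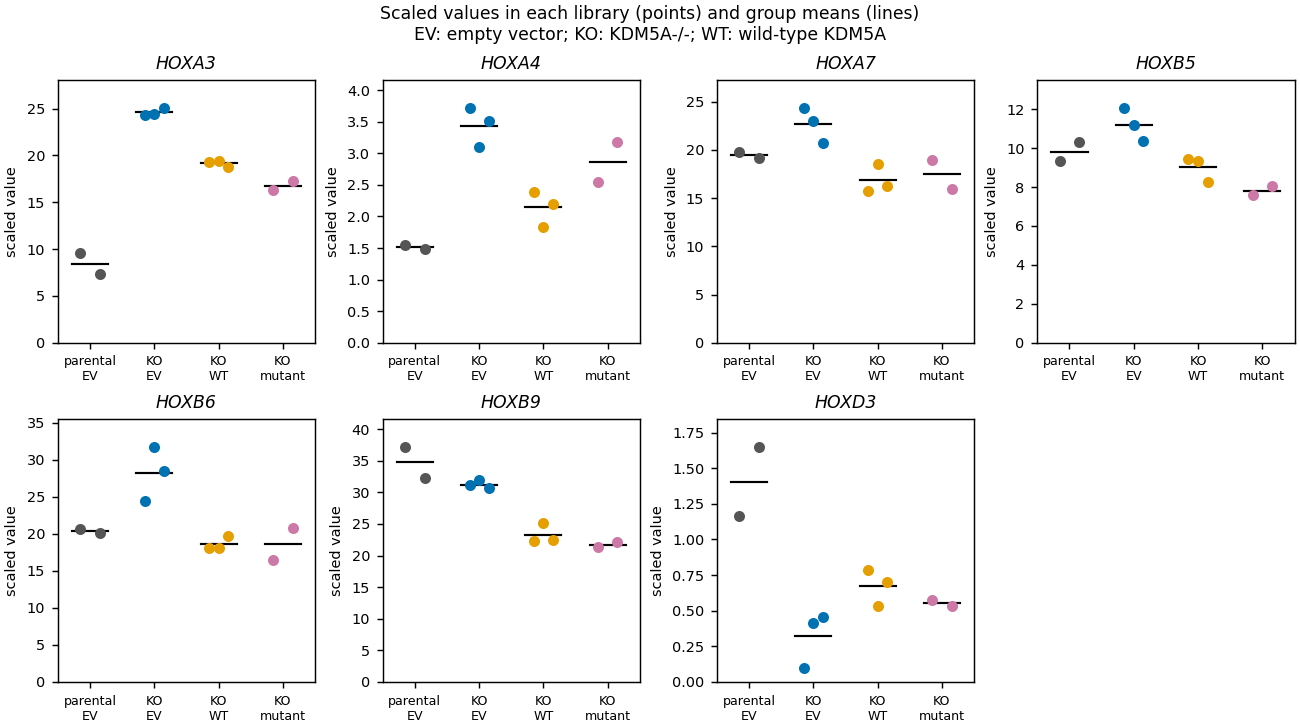
Scaled value (vertical axis, from 0) in each library (points) with the group mean (lines) for the 7 HOX genes that passed in at least 1 comparison. HOXA3 shows 4 separate levels, from 7.35 in a parental library to 25.1 in an empty-vector library, and HOXB9 is lower with both plasmids than in either empty-vector group.

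With the mutant plasmid in place of the wild-type one, the same question was put to the mutant protein. HOXB9, HOXA3, HOXB6, HOXB5 and HOXA7 fell to between 66.1% and 77.0% of their empty-vector means, and none rose. These were 5 of 26 genes, where 7.05% of all genes tested were lower and 9.48% higher (16.5% in either direction). At an unadjusted p under 0.05, 8 were lower and 0 higher, against 15.4% of all genes lower and 16.8% higher. The comparison uses the same 3 empty-vector libraries as the one before, so values of both plasmids against empty vector are not independent of each other.

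HOXB9 was 21.3 and 22.1 with mutant KDM5A, below the lowest empty-vector value of 30.7. Its mean was 21.7 ± 0.529 (SD, n = 2), with adjusted p = 0.00692 and a log2 fold change of -0.51 (SE 0.08). HOXA3 (chromosome 7, 27106183 to 27152581, minus strand), an anterior gene of pharyngeal development, was 16.3 and 17.3 against 24.3 to 25.1. Its mean was 16.8 ± 0.747 (SD, n = 2), with adjusted p = 0.0108 and a log2 fold change of -0.53 (SE 0.10). HOXB6 was 16.5 and 20.8 (log2 fold change -0.57, SE 0.12, adjusted p = 0.0163). Its mutant libraries lay on either side of the 3 wild-type libraries. HOXB5 (chromosome 17, 48591256 to 48593961, minus strand), the next gene along the cluster, was 12.1, 11.2 and 10.3 with empty vector, 9.45, 9.36 and 8.28 with wild-type KDM5A and 7.60 and 8.04 with mutant KDM5A. The 3 groups of KDM5A-/- cells did not overlap for HOXB5. Its change with mutant KDM5A passed (log2 fold change -0.47, SE 0.10, adjusted p = 0.0183), and its change with wild-type KDM5A did not (log2 fold change -0.28, adjusted p = 0.127). HOXA7 was 19.0 and 16 (log2 fold change -0.36, SE 0.11, adjusted p = 0.0477).

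Further genes by p that did not pass were HOXC13 (log2 fold change -0.53, adjusted p = 0.0833), HOXB2 (log2 fold change -0.91, adjusted p = 0.103) and HOXA5 (log2 fold change -0.43, adjusted p = 0.108). HOXB2 was 3.26 in mutant library 1 and 0.851 in mutant library 2. The fitted change was below 0 for 22 of 26 HOX genes and for 51.1% of all genes, with a median of -0.21 against -0.01 (-0.50 against -0.30 on the values as deposited). Non-overlapping groups, lower with mutant KDM5A, were found in 12 of 26 HOX genes and 23.6% of all genes. In the higher direction 1 HOX gene did not overlap, against 23.3%. It was HOXD3, below 1 in every library of both groups. HOXB9 passed whichever library was left out, HOXA3 passed except without mutant library 1 (adjusted p = 0.0604), and HOXA7 passed in none of those fits. The count was 2 without empty-vector library 2 and 3 without empty-vector library 1 or 3. On the values as deposited 17 of 27 HOX genes passed, all lower. Over all genes 6150 were lower and 458 higher in that fit, and the median of all genes was also lower.

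The comparison of mutant with wild-type KDM5A asks where the mutant protein differs. None of the 26 HOX genes passed in limma, where 0.0337% of all genes tested were higher and 0.0225% lower (0.0562% in either direction). At an unadjusted p under 0.05, 0 were lower, against 9.14% of all genes, and 2 were higher, namely HOXB7 and HOXC6, against 11.0%. HOXB7 was 47.1 and 45.6 with mutant KDM5A against 37.6, 37.1 and 37.8 with wild-type KDM5A (log2 fold change 0.30, SE 0.08, 95% interval 0.11 to 0.48, adjusted p = 0.110). Without parental library 1 or 2 in the fit the log2 fold change of HOXB7 was again 0.30, as neither plasmid group holds those libraries. Whether HOXB7 passed did depend on those libraries, through the estimate of spread that all groups share. HOXC6 was 5.6 and 7.01 against 4.91, 4.05 and 4.69 (log2 fold change 0.39, SE 0.14, adjusted p = 0.169). HOXA4 was 2.55 and 3.18 against 2.39, 1.84 and 2.2 (log2 fold change 0.30, SE 0.15, adjusted p = 0.317). In these 3 genes the mutant libraries lay above all wild-type libraries.

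For the genes that fell with either plasmid, the intervals for the difference between plasmids all included 0. These intervals were too wide to show that the plasmids act alike. The 95% interval of the mutant minus wild-type log2 fold change was -0.28 to 0.27 for HOXB6, -0.28 to 0.09 for HOXB9 and -0.19 to 0.29 for HOXA7. It was -0.41 to 0.04 for HOXA3 and -0.42 to 0.05 for HOXB5, whose mutant libraries lay below all wild-type libraries. The same held for HOXB9 by a narrow margin (22.1 against 22.3). Groups did not overlap in 3 of the 26 in the lower direction and 5 in the higher, against 19.4% and 19.5% of all genes. The fitted change was below 0 in 14 of the 26 and in 50.3% of all genes, and its median over the 26 was -0.02. On the values as deposited that median was -0.22, with 21 of 27 below 0, where the median of all genes was -0.20.

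**Figure D3:**
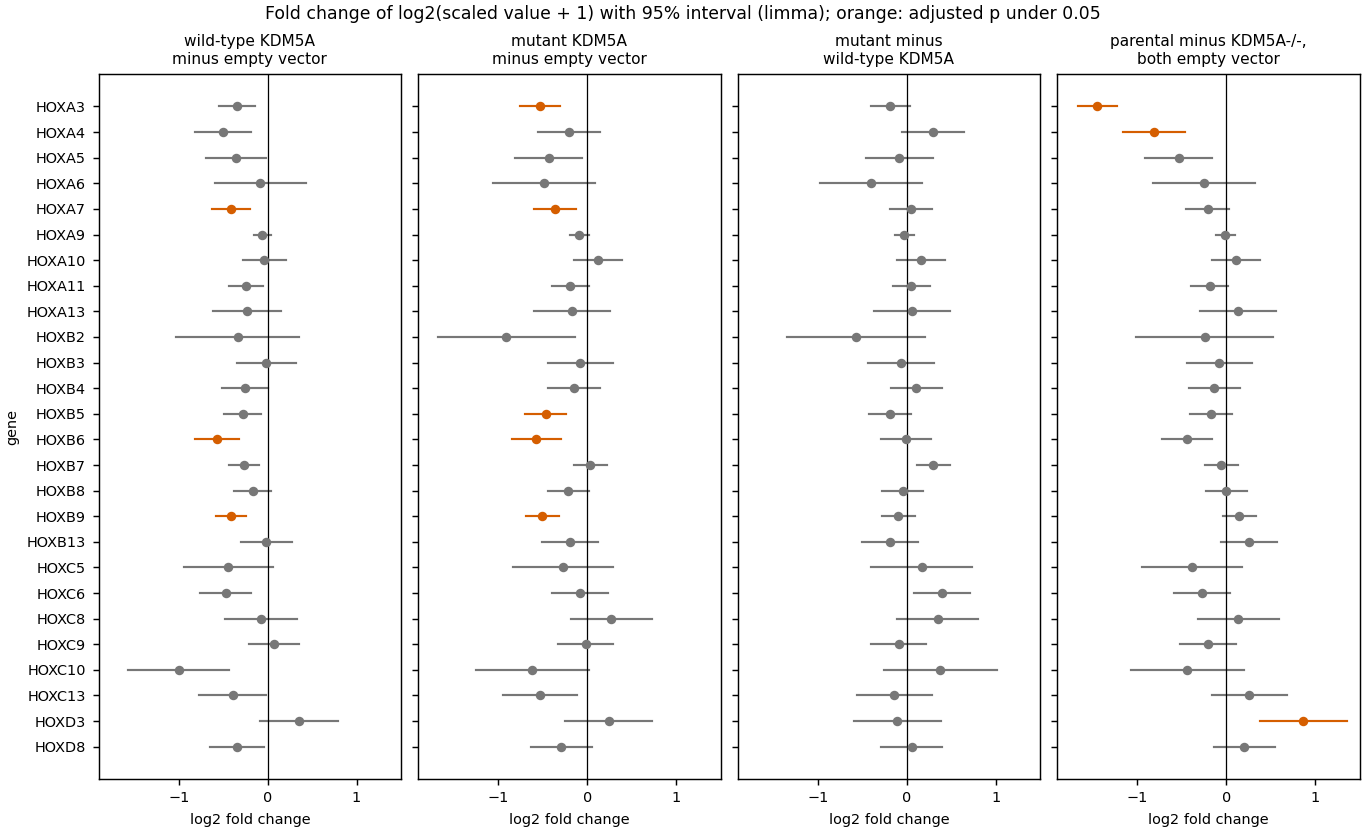
Difference in log2(scaled value + 1) with its 95% interval (horizontal axis) for the 26 HOX genes tested in the 4 comparisons, with genes at an adjusted p under 0.05 in orange. Most points lie left of 0 for both plasmids against empty vector, they scatter around 0 between the plasmids, and HOXA3 and HOXA4 lie farthest left in parental against KDM5A-/- cells.

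The comparison of parental with KDM5A-/- cells, both with empty vector, asks how the lines differ before KDM5A is added. HOXA3 and HOXA4, at the anterior end of the HOXA cluster, were lower in parental cells, at 34.4% and 44.2% of their KDM5A-/- means. HOXD3 was higher. Of the 26 genes 2 were lower and 1 higher, where 4.84% of all genes tested were lower and 4.09% higher (8.94% in either direction). At an unadjusted p under 0.05, 4 were lower and 1 higher, against 13.2% of all genes lower and 12.6% higher.

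HOXA3 was 9.56 and 7.35 in parental libraries, 24.3, 24.5 and 25.1 with empty vector in KDM5A-/- cells, 19.3, 19.4 and 18.8 with wild-type KDM5A and 16.3 and 17.3 with mutant KDM5A. No pair of groups overlapped, and both plasmid groups lay between the parental and the empty-vector KDM5A-/- levels. The parental mean was 8.46 ± 1.56 (SD, n = 2) and the empty-vector KDM5A-/- mean 24.6 ± 0.395 (SD, n = 3), with adjusted p = 0.000163 (limma) and a log2 fold change of -1.45 (SE 0.10). Without parental library 2, which stood apart in make-up, the log2 fold change was -1.28 (adjusted p = 0.000689). HOXB9 was the other gene of the 26 with 4 non-overlapping groups, a pattern seen in 2.60% of all genes tested. Its order differed from that of HOXA3: parental values (37.1 and 32.3) were the highest and mutant values the lowest.

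HOXA4 (chromosome 7, 27128506 to 27130799, minus strand), the neighbour of HOXA3, was 1.55 and 1.49 in parental cells, 3.72, 3.10 and 3.5 with empty vector in KDM5A-/- cells, 2.39, 1.84 and 2.2 with wild-type KDM5A and 2.55 and 3.18 with mutant KDM5A. The parental libraries were the lowest of all. The parental difference passed (log2 fold change -0.81, SE 0.15, adjusted p = 0.0144), and did not without parental library 2 (adjusted p = 0.0756) or empty-vector library 3. HOXD3 (chromosome 2, 176136611 to 176173102, plus strand, 2 loci summed) was 1.16 and 1.65 in parental cells and 0.0961, 0.416 and 0.458 with empty vector in KDM5A-/- cells (log2 fold change 0.87, SE 0.22, adjusted p = 0.0408). HOXD3 reached the filter on low values only through the parental libraries, so its call is partly fixed by the filter, and it passed in 2 of 10 fits with a library left out.

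Genes that came next were HOXB6 (20.6 and 20.1 in parental cells, log2 fold change -0.44, adjusted p = 0.0575), HOXA5 (5.20 and 4.50 against 6.64, 7.27 and 8.58, log2 fold change -0.54, adjusted p = 0.0828) and HOXA11 (log2 fold change -0.19, adjusted p = 0.244). None of the 3 passed. The fitted change was below 0 for 17 of 26 HOX genes and for 50.6% of all genes, with a median of -0.15 against 0.00. That median was -0.075 without parental library 1 and -0.25 on the values as deposited. Groups did not overlap in 9 of 26 HOX genes in the lower and 5 in the higher direction, against 21.9% and 20.6% of all genes.

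Along the HOXA cluster the parental difference was largest at the anterior end. Its log2 fold change was -1.45 for HOXA3, -0.81 for HOXA4, -0.54 for HOXA5, -0.25 for HOXA6, -0.21 for HOXA7 and -0.01 for HOXA9, whose 3′ ends lie 5.83, 28.2, 40.7, 45.0, 53.4 and 62.1 kb from that of HOXA2. From HOXA10 to HOXA13 it was between -0.19 and 0.13. Because the HOXA3 locus spans HOXA4 to HOXA6, these 4 values may share reads and are not independent. Without parental library 2, and without the mutant libraries, the values were -1.28, -0.80, -0.45, -0.45, -0.19 and 0.01 for the same 6 genes. The series of values has no test of its own. With the wild-type plasmid the log2 fold changes were -0.34, -0.50, -0.35, -0.08 and -0.41 from HOXA3 to HOXA7 and -0.06, -0.04, -0.24 and -0.23 from HOXA9 to HOXA13. With the mutant plasmid they were -0.53, -0.20, -0.43, -0.49 and -0.36 for the former and -0.09, 0.12, -0.19 and -0.17 for the latter. These values also lay mostly lower from HOXA3 to HOXA7, and whether the pattern differs from that in parental cells was not tested. In HOXB the lowest values with wild-type KDM5A were at HOXB6 and HOXB9, while HOXB3 (-0.01) and HOXB13 (-0.01), at 20.3 and 196 kb from HOXB1, lay at 0.

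**Figure D4:**
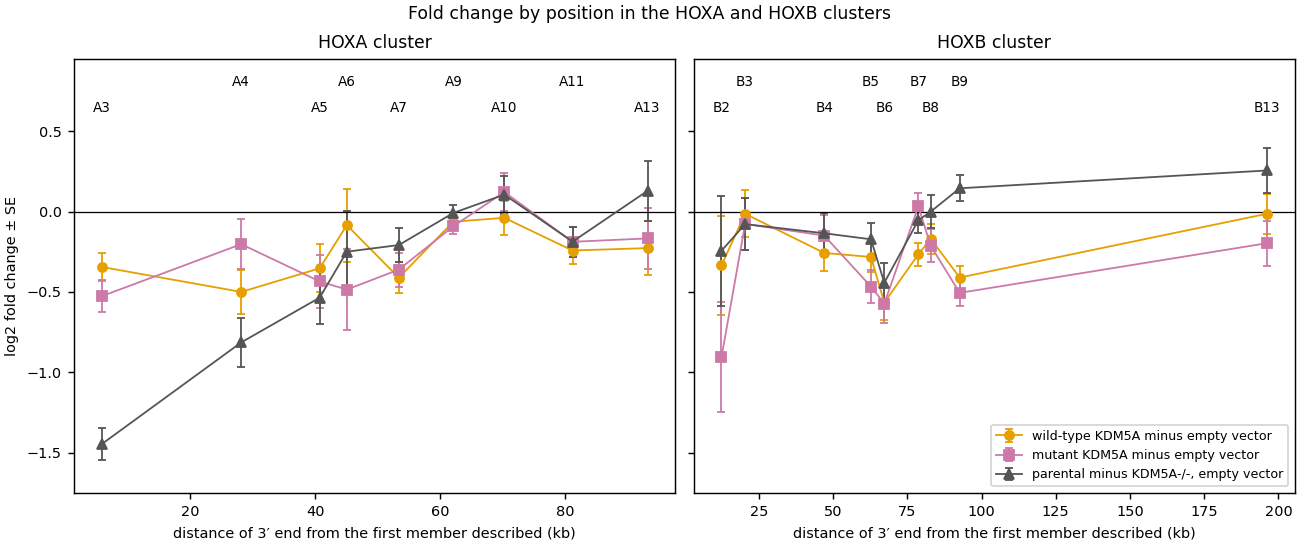
Log2 fold change ± SE (vertical axis) of the tested HOXA and HOXB genes against the distance of their 3′ end from that of the first gene described, HOXA2 or HOXB1, in kb. The parental values climb from -1.45 at HOXA3 to -0.01 at HOXA9, while in HOXB the lowest values are at HOXB6 with wild-type KDM5A (-0.57) and at HOXB2 with mutant KDM5A (-0.91).

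Promoter sequences are shown for the 3 HOXA genes that changed and for HOXA9, the most abundant gene, so that they can be read side by side. HOXA9 passed in none of the 4 comparisons on scaled values, but was lower with mutant KDM5A after quantile normalization (log2 fold change -0.25, adjusted p = 0.0222, limma) and on the values as deposited (-0.43, adjusted p = 0.00356). They come from RefSeq (GRCh38.p14, all on the minus strand), run from 250 bases before to 50 after the annotated start and are written 5′ to 3′. The windows are chr7:27152534-27152833 for HOXA3, chr7:27130708-27131007 for HOXA4, chr7:27156626-27156925 for HOXA7 and chr7:27165488-27165787 for HOXA9. Capitals mark CCGCCC or its reverse complement GGGCGG, the motif described for the DNA-binding ARID domain of KDM5A.
HOXA3: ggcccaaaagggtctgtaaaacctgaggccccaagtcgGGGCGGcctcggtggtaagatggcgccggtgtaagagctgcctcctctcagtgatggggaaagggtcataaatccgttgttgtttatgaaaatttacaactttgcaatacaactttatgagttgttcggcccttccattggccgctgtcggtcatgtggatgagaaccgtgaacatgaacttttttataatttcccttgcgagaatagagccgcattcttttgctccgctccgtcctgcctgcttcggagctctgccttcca
HOXA4: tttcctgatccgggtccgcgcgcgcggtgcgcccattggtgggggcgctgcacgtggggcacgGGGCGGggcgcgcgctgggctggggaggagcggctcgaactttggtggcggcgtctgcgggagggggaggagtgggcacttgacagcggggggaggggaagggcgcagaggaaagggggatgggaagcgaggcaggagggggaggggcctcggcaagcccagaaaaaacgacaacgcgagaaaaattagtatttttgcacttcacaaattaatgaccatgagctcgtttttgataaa
HOXA7: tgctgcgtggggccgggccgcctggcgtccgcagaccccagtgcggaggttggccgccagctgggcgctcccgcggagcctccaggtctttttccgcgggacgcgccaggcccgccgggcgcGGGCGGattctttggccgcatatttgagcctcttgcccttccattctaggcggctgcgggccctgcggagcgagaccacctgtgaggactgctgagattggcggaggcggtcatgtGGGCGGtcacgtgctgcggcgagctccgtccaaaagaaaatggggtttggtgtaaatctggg
HOXA9: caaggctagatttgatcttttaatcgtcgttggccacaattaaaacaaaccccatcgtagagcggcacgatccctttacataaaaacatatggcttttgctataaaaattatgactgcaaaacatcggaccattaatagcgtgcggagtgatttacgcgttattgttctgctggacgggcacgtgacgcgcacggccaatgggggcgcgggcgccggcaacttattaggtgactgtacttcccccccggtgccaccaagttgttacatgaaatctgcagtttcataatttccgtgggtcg
The motif occurred 1 time in the HOXA3 and HOXA4 windows, 2 times in that of HOXA7 and 0 times in that of HOXA9. It occurred 4 times in the windows of HOXA6 and HOXA13 and 0 times in those of HOXA10 and HOXA11. HOXA6, HOXA10, HOXA11 and HOXA13 passed in none of the 4 comparisons on scaled values. Of 20 HOX genes with a promoter in the RefSeq table, 10 held the motif, or 50%, where 44.9% of 34796 promoters of the same length did. HOXC4 and HOXC5 share a window, which was counted for each gene, while repeated sequences were dropped from the 34796 promoters. HOXB6, HOXB9 and HOXB5 were not among the 20. Counted by gene, the windows of the 20 genes had a median of 22.5 CG dinucleotides against 14 over all promoters, from 4 in HOXD4 to 44 in HOXA13. These matches are a description of the letters, and binding was not measured.

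Genes that work with or on the HOX clusters were counted as well. Of 9 TALE cofactors, homeodomain proteins that bind DNA together with HOX proteins, 7 were tested, with MEIS1 and PKNOX2 below the filter. None passed with wild-type KDM5A and 1 of 7, beside 7.05% of all genes tested, was lower with mutant KDM5A (MEIS3, 34.8 to 25.7, log2 fold change -0.42, adjusted p = 0.00970). Of 30 regulators of the clusters 27 were tested. With wild-type KDM5A 2 of the 27 were lower, beside 2.02% of all genes tested: CTCF, an insulator protein (35.0 to 27.1, log2 fold change -0.36, adjusted p = 0.0152), and KDM6A, which removes Polycomb-type methylation of histone H3 (25.6 to 18.4, log2 fold change -0.46, adjusted p = 0.0370).

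With mutant KDM5A 6 of 27 regulators were lower and 0 higher, beside 7.05% and 9.48% of all genes tested, including KDM6A (to 15.1, log2 fold change -0.73, adjusted p = 0.00607), CTCF (to 26.8, log2 fold change -0.38, adjusted p = 0.00922), CBX6, a Polycomb subunit (73.4 to 52.8, log2 fold change -0.47, adjusted p = 0.0145), and the retinoic acid receptor RARG (50.5 to 41.8, log2 fold change -0.27, adjusted p = 0.0158). In parental cells 1 of the 27 regulators was lower and 1 higher, beside 4.84% and 4.09% of all genes tested. KDM6A was lower (17.1, log2 fold change -0.56, adjusted p = 0.0178) and PHC1, another Polycomb subunit, higher (18.5 against 10.4, log2 fold change 0.77, adjusted p = 0.00806). None of the 27 regulators or 7 cofactors passed between mutant and wild-type KDM5A. The median log2 fold change of the regulators was -0.10, -0.15, -0.06 and 0.00 with wild-type KDM5A, mutant KDM5A, mutant against wild-type and parental cells.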

How the data were processed

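For every library the authors deposited a log2 FPKM for 60141 loci, each with its gene symbol. The values show log2 of a value plus 1 that sums to 999975 to 1000008 per library. Per the submitters' processing notes the tools were Cufflinks 2.2.1, GATK 4.1.2, STAR 2.7.1a and Picard with the build GRCh38, in an order and with an annotation not given in the sources used here. No counts were used, so depth and counting precision are unknown.

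Values were made linear, summed over loci of a symbol and scaled by library, dividing by the median of its ratios to the genes' geometric means, over 13651 genes at 1 or more in every library. Gene types and strands came from GENCODE release 29 by symbol. Genes at 1 or more in at least 2 libraries (17779) were tested on log2(scaled value + 1) with limma 3.58.1 in R 4.3.3 (trend, all 10 libraries, 4 groups, 6 residual degrees of freedom, two-sided, Benjamini-Hochberg over all genes tested). Python 3.11.15, numpy 2.4.6, pandas 2.3.3 and matplotlib 3.10.9 did the rest, and the test was checked on simulated data. Of 39 symbols that match the naming rule, 1 is not reported here. Members and lists were chosen with earlier results of these data known. Genes named are those that passed, the most abundant of each cluster, the next 3 by p, and up to 4 per related list. Alternatives were other scalings, pseudocount, filters, libraries in the fit, the replicate number as a block and each library left out.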

Additional observations from a re-analysis of the deposited data

How the results depend on the processing

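The log2 fold changes of HOX genes that passed kept their direction in every alternative fit that gave one. They stayed past the threshold in 126 such gene-by-fit values and did not in 65. Mutant comparisons could not be fitted without both mutant libraries. The count of HOX genes passing was 3, 5, 0 and 3 for wild-type against empty vector, mutant against empty vector, mutant against wild-type and parental against KDM5A-/- cells. With wild-type KDM5A it was 6 on the values as deposited, 1 with no filter on low values, 5 with a mean of at least 5, 7 with only the libraries compared and 7 without both mutant libraries and parental library 2. With mutant KDM5A it was 17 as deposited and 2 with only the libraries compared. For parental cells it was 1 with only the libraries compared and 1 without the libraries that stand apart. With each library left out in turn it ranged from 0 to 4, 2 to 5, 0 to 1 and 1 to 4. The replicate number as a block gave 1 HOX gene with wild-type KDM5A (HOXC10) and 1 for parental cells (HOXA3). Deviations from group means had correlations from -0.09 to 0.05 in 13 pairs of same-numbered libraries, 0 of them over 0.1. Of 10 libraries, 2 correlated best with their own number. In groups of 2 libraries the deviations mirror each other, so these pairs are not independent. Whether same-numbered libraries share a culture or day cannot be told from these values.

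Over all genes, 807, 2939, 10 and 1589 passed in the 4 comparisons. The block gave 214, 1109, 1 and 556, and only the libraries compared gave 1689, 1838, 214 and 464. As deposited, 6608 passed for mutant against empty vector and 1490 for mutant against wild-type. The latter had 6 after quantile normalization, 93 with no filter and 3 with a mean of at least 5. Without both mutant libraries and parental library 2, 1690 passed for wild-type KDM5A and 1047 for parental cells. Leaving out 1 library gave 178 to 1058, 1215 to 3466, 5 to 970 and 685 to 1904. The split of higher and lower genes was 448 and 359 with wild-type KDM5A (123 and 613 as deposited), 1685 and 1254 with mutant KDM5A (458 and 6150 as deposited, 887 and 1223 after quantile normalization), 6 and 4 for mutant against wild-type (107 and 1383 as deposited, 5 and 1 after quantile normalization) and 728 and 861 for parental cells (372 and 971 as deposited). The median over HOX genes of mutant against wild-type, -0.02, was -0.22 on the values as deposited, 0.014 with the block and ranged from -0.023 to 0.027 with each library left out (0.024 without wild-type library 3 and 0.027 without mutant library 1). The cause of these differences was not tested.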

Other observations

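Noncoding RNAs of the clusters and genes flanking them were also measured, and 14 of 34 passed the filter on low values. HOTAIRM1, a long noncoding RNA from the anterior end of the HOXA cluster, was lower with wild-type KDM5A, at a mean of 15.4 against 25.3 with empty vector (log2 fold change -0.69, SE 0.15, adjusted p = 0.0363, limma). Its mean was 19.6 with mutant KDM5A (log2 fold change -0.38, adjusted p = 0.153) and 22.7 in parental cells. HOXA10-AS, antisense to HOXA10, had means of 35.8 with empty vector in KDM5A-/- cells, 25.3 with wild-type KDM5A, 26.6 with mutant KDM5A and 23.9 in parental cells. The parental difference passed (log2 fold change -0.56, adjusted p = 0.0337), and those with wild-type and mutant KDM5A did not (adjusted p = 0.0559 and adjusted p = 0.0550). Without a known strand setting, its reads cannot be told from those of the overlapping HOXA9 and HOXA10 loci.

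SKAP2, the gene beyond the anterior end of the HOXA cluster, was lower in parental cells, with a mean of 18.2 against 29.6 (log2 fold change -0.67, SE 0.16, adjusted p = 0.0330), in the same direction as HOXA3 and HOXA4. Its log2 fold change was -0.01 with either plasmid against empty vector. The parental log2 fold change was -0.15 for HOTAIRM1 and 0.34 for SNX10, another flanking gene. Neither passed (adjusted p = 0.623 and 0.107, limma). In parental cells 2 of the 14 noncoding or flanking genes tested were lower and 0 higher, beside 4.84% and 4.09% of all genes tested. HOTAIR and HOTTIP, noncoding RNAs of the HOXC and HOXA clusters, had means of 0.410 and 0.182 with empty vector in KDM5A-/- cells and stayed below the filter.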
